A study of Mus musculus with 4 samples.

Results

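The genes described here are the matrix metalloproteinases (MMP), the ADAMTS proteases, the ADAMTS-like proteins and the tissue inhibitors of metalloproteinases (TIMP). They were taken from the count table by gene symbol, as every row named Mmp, Adamts, Adamtsl or Timp followed by its number. This gave 44 of the 21971 genes: 18 MMP, 17 ADAMTS, 5 ADAMTS-like and 4 TIMP genes. The reference lists 51 such symbols, and the 7 others (Mmp1a, Mmp8, Mmp16, Mmp20, Mmp21, Adamts8 and Adamts19) were not analysed here.

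RNA-seq of rRNA-depleted total RNA was made from NMuMG cells, which are epithelial cells of the normal mouse mammary gland kept as a line. The line loses epithelial features when given TGFβ, a process called epithelial-to-mesenchymal transition (EMT). All 4 libraries came from cells that stably carry a mutated human TRF1, a telomere-binding protein: either TRF1ΔN alone or Vp16-TRF1ΔN, in which a viral transcription activation domain is fused to it. The series description states that the fusion raises telomeric repeat RNA of the TERRA type and asks how this alters the EMT signature. Each line was sampled at 0 h and after 24 h with TGFβ at 5 ng/ml, giving the groups TRF1ΔN at 0 h, TRF1ΔN at 24 h, Vp16-TRF1ΔN at 0 h and Vp16-TRF1ΔN at 24 h, each with 1 library. There was no line without a TRF1 construct among these samples, the labels do not say whether a line is 1 clone, and no 24 h library without TGFβ is named, so time in culture and TGFβ cannot be told apart.

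MMPs are zinc-dependent proteases that cut collagens, gelatin, laminins, proteoglycans and many cell surface proteins. Most are secreted as inactive proenzymes, while the membrane-type MMPs sit on the cell surface. ADAMTS proteases are secreted relatives that carry thrombospondin repeats and bind matrix. They cleave proteoglycans such as versican and aggrecan, trim procollagens or act on fibrillin microfibrils, and the ADAMTS-like proteins share their ancillary domains but have no protease domain. TIMPs bind the active site of these enzymes and block it. During EMT, MMPs can cut E-cadherin and basement membrane, and TGFβ is a known regulator of several family members.

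The 4 libraries held 35418985 to 45983910 counts on genes, and the Vp16-TRF1ΔN library at 24 h was the shallowest. Levels are given as CPM, the count as a share of the library scaled to 1000000 and corrected by TMM, a method that corrects for differences in composition. A count of 3 stands for 0.0630 to 0.0875 CPM in these libraries and serves as the floor where a library has 0 counts. The labelled epithelial origin was checked first: Krt8 and Krt18, keratins of simple epithelia, had at least 65274 and 107999 counts in every library. E-cadherin (Cdh1) had 4515 to 17416 counts and Krt19 had 3481 to 74570, both lower at 24 h in both lines, whereas Epcam had 4 to 18.

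The average TGFβ effect was tested over both lines with an additive model that leaves 1 residual degree of freedom. The error term of each test was thus the departure of these 4 libraries from additivity, moderated over genes. It was not a spread between replicates. Of the 44 genes, 30 passed the filter on low counts and were tested, and the other 14 had at most 33 counts in any library. Among the 30, 18 rose and 5 fell with TGFβ at an adjusted p under 0.05, and 7 did not pass. Of the 30, Mmp9, Mmp12, Adamts2, Adamts5, Adamts16 and Adamtsl2 met the level that the filter asks for (0.235 CPM) only at 24 h, and Mmp3 only at 0 h, so the direction of these 7 was bound to the filter and the counts and median describe only the genes that passed it. Of all 14305 genes tested, 23.1% rose and 25.4% fell. The median log2 change was 1.77 over the 30 genes and -0.01 over all genes tested, and it was also 1.77 when the 6 genes with 3 or fewer counts in some library were set to the bound that their floor allows. Of the 30 genes tested, 16 rose and 5 fell by at least 2-fold, against 8.61% and 10.4% of all 14305 genes tested.

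**Figure D1:**
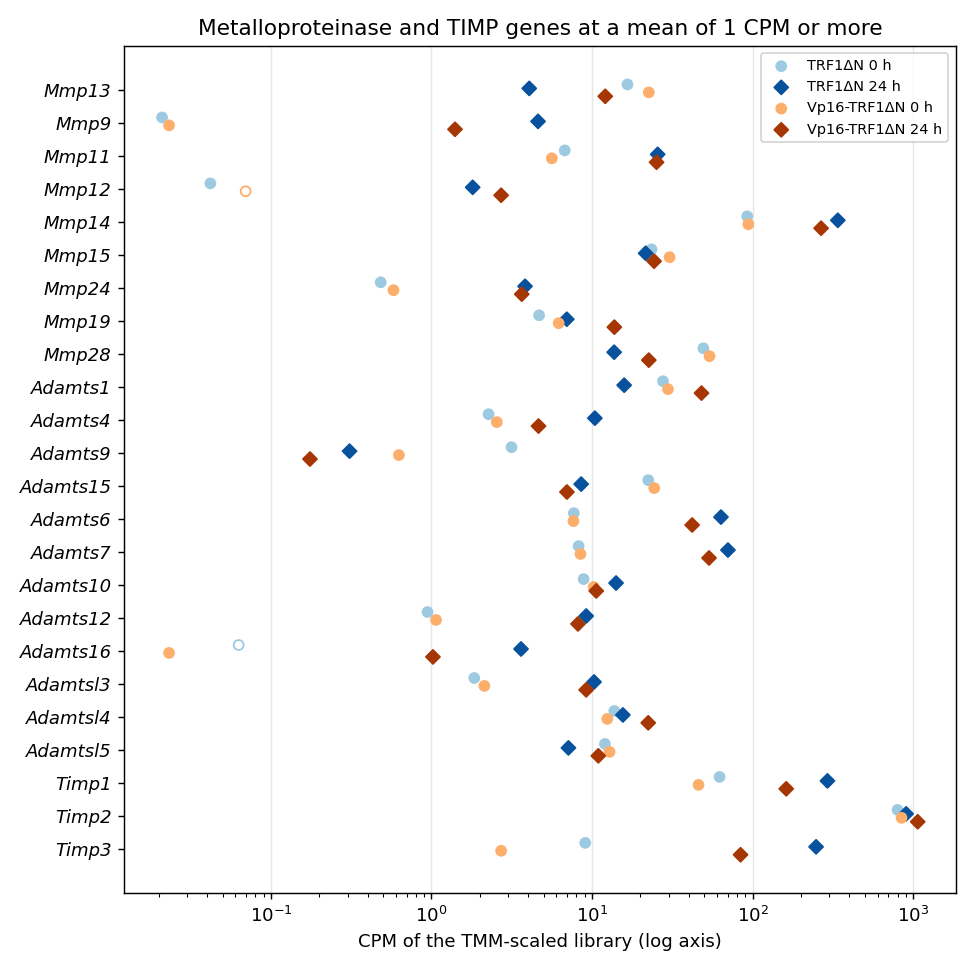
CPM on a log axis in each of the 4 libraries for the 24 genes averaging 1 CPM or more, grouped by role, with circles for 0 h, diamonds for 24 h of TGFβ, blue for TRF1ΔN and orange for Vp16-TRF1ΔN. Open symbols mark a count of 0, drawn at the floor of 3 counts. Mmp9, Mmp12, Adamts16 and Timp3 show the widest gaps between circles and diamonds, and Timp2 stays between 799 and 1067 CPM.

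Of the 4 TIMP genes 3 rose and 1 was not tested, while 23.1% of all genes tested rose. Per kb, Timp2 and Timp1 were the most abundant genes of the whole family. Timp3 encodes the TIMP that binds to matrix and inhibits ADAM17 and the aggrecanases as well as MMPs. It had 9.07 CPM in the TRF1ΔN line at 0 h and 248 at 24 h, and 2.71 and 84.1 CPM in the Vp16-TRF1ΔN line. The 24 h libraries were far above the 0 h libraries in both lines, and within each time the Vp16-TRF1ΔN library was the lower. Its log2 change was 4.85 ± 0.09 (SE, adjusted p = 0.000858, edgeR quasi-likelihood test), 27.4-fold in the TRF1ΔN line (95% counting interval 24.9 to 30.2) and 31.0-fold in the Vp16-TRF1ΔN line (25.8 to 37.6). The Timp3 gene (chr10:86300372-86349506, plus strand, GRCm38) lies on the opposite strand of the synapsin gene Syn3 and shares 1733 exonic bases with it, 21.3% of its exons. Whether the counting used strand is not given in the sources used here. Syn3 had 72 and 71 counts at 24 h against 185 and 169 at 0 h, so its counts moved the other way.

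Timp1, which encodes a secreted inhibitor of most MMPs, had 62.2 CPM at 0 h and 292 at 24 h in TRF1ΔN cells, and 46.05 and 162 CPM in Vp16-TRF1ΔN cells. Both 24 h values lay above both 0 h values, and the log2 change was 2.025 ± 0.12 (adjusted p = 0.00125). Timp2, whose product both inhibits MMPs and helps MMP14 activate pro-MMP2, had 799, 904, 846 and 1067 CPM in TRF1ΔN at 0 h and 24 h and Vp16-TRF1ΔN at 0 h and 24 h. It rose by 0.26 ± 0.07 on the log2 scale (adjusted p = 0.0477), a call that ended under 7 of 9 other settings, among them DESeq2's Wald test (adjusted p = 0.103), the scaling by DESeq2's size factors (0.0512) and a comparison of the times that left out the TRF1ΔN library at 0 h (0.493), the Vp16-TRF1ΔN library at 0 h (0.323) or the Vp16-TRF1ΔN library at 24 h (0.214). Timp4 had 1 count in each 0 h library and 0 in each 24 h library.

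Levels of different genes were compared per kilobase of annotated exon. The TIMP genes summed to 276 CPM per kb in the TRF1ΔN line at 0 h and 592 at 24 h, and to 269 and 466.5 in the Vp16-TRF1ΔN line. Timp2 made up 74.2% of that sum in the TRF1ΔN line at 0 h and 80.6% in the Vp16-TRF1ΔN line. At 24 h its share was 39.2% and 58.7%, and Timp1 made up 55.6% and 39.1%. So Timp1 RNA exceeded Timp2 RNA per kb after TGFβ in the TRF1ΔN line but not in the Vp16-TRF1ΔN line, a comparison of single libraries that has no test. Timp3 made up 5.15% and 2.21% at 24 h.

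**Figure D2:**
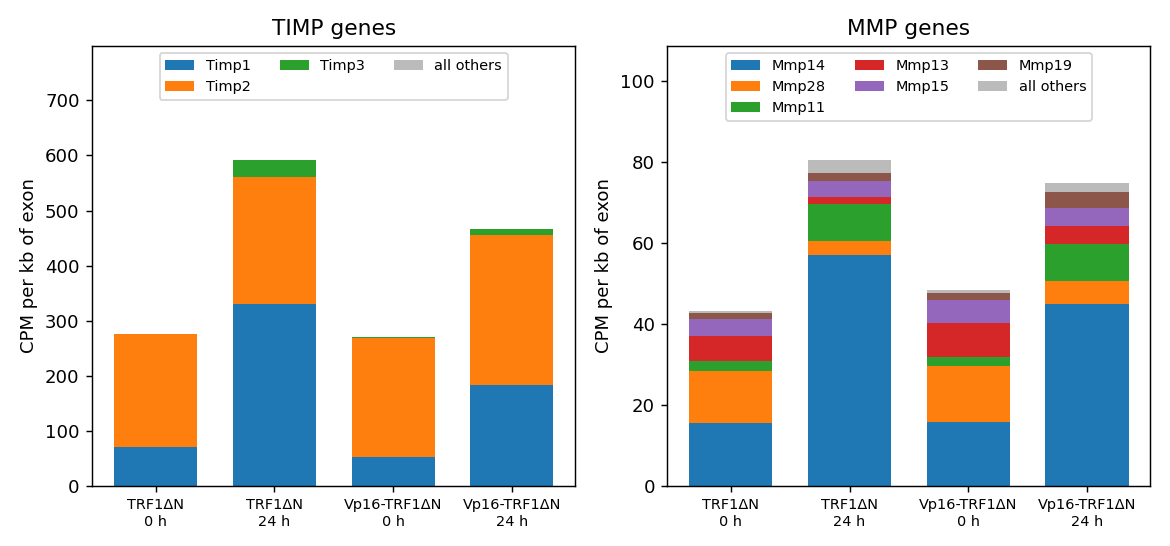
Stacked bars of CPM per kb of exon in each library, for the TIMP genes on the left and the MMP genes on the right, with genes not named in the legend in grey. The blue Timp1 segment grows from 0 h to 24 h in both lines, and Mmp14 makes up 36.0% and 32.7% of the MMP sum at 0 h and 70.8% and 59.8% at 24 h in the TRF1ΔN and Vp16-TRF1ΔN lines.

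Of the 18 MMP genes, 7 rose and 3 fell, 2 did not pass and 6 were not tested. Of all genes tested 23.1% rose and 25.4% fell. Among the calls here, Mmp9 and Mmp12 met the filter's level only at 24 h, and Mmp3 only at 0 h. Mmp14, the membrane-type MMP that cuts fibrillar collagen and activates pro-MMP2, was the most abundant per kb in every library. In TRF1ΔN cells it had 92.5 CPM at 0 h and 339 at 24 h, and in Vp16-TRF1ΔN cells 94.0 and 267. Lines were alike at 0 h, and both were higher at 24 h, with a log2 change of 1.69 ± 0.11 (adjusted p = 0.00140). Per kb of exon, the MMP genes together summed to 43.2 CPM at 0 h and 80.5 at 24 h in TRF1ΔN cells, and to 48.2 and 74.9 in Vp16-TRF1ΔN cells.

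The other membrane-type genes did not move together. Mmp24, another transmembrane MMP, had 23 and 25 counts at 0 h and 161 and 125 at 24 h, a rise with a log2 change of 2.81 ± 0.24 (adjusted p = 0.00230). It shares 637 exonic bases (13.6% of its exons) with BC029722 on the opposite strand, whose counts were 1546 and 1441 at 0 h and 1389 and 1330 at 24 h. Mmp15 had 23.5, 21.6, 30.4 and 24.3 CPM in the order of libraries given above for Timp2 and did not pass (log2 change -0.22 ± 0.09, adjusted p = 0.109). Mmp17, which encodes an MMP held in the membrane by a lipid anchor, had 8 to 17 counts and did not pass (adjusted p = 0.728). Mmp25, also anchored by a lipid, had at most 2 counts.

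Gelatinases cut denatured collagen and type IV collagen of basement membranes. Mmp9 had 1 count in each 0 h library, 194 counts in the TRF1ΔN library at 24 h and 48 in the Vp16-TRF1ΔN library at 24 h. This is 220-fold higher with TGFβ in the TRF1ΔN line (95% counting interval 39.0 to 8716) and 60.4-fold higher in the Vp16-TRF1ΔN line (10.3 to 2434), intervals set by the single counts at 0 h, and the average rise passed the test (adjusted p = 0.00146). At its highest Mmp9 stood at 4.61 CPM. Mmp2, which is abundant in mesenchymal cells, remained scarce, with 2 and 33 counts in the TRF1ΔN line and 1 and 5 in the Vp16-TRF1ΔN line, and was not tested, although without the filter on low counts it was called as higher.

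Among the stromelysins, Mmp11, whose proenzyme is activated inside the cell by furin, rose from 6.76 to 25.6 CPM and from 5.61 to 25.2 CPM. Its log2 change was 2.04 ± 0.11 (adjusted p = 0.00110), and the 24 h values of both lines were nearly equal. Mmp28, or epilysin, an MMP of epithelia, went the other way, from 49.3 to 13.7 CPM and from 53.9 to 22.6 CPM, a fall by 1.55 ± 0.16 on the log2 scale (adjusted p = 0.00338). It was the MMP gene with the next highest level per kb after Mmp14 at 0 h, with 29.5% and 28.9% of the MMP sum, and at 24 h it made up 4.41% and 7.78%. Mmp19 rose by 0.87 ± 0.19 (adjusted p = 0.0202), from 4.68 to 6.96 CPM and from 6.19 to 13.8 CPM. This call was lost when the times were compared without a term for the line (adjusted p = 0.100), and there without either 0 h library or the Vp16-TRF1ΔN library at 24 h (0.325, 0.151 and 0.215 without TRF1ΔN at 0 h, Vp16-TRF1ΔN at 0 h and Vp16-TRF1ΔN at 24 h). Mmp19 also shares 789 exonic bases (22.3%) with Tmem198b on the opposite strand, whose counts went from 515 to 891 and from 487 to 763, and the part of that overlap in the result was not tested.

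A cluster of MMP genes on chromosome 9 (chr9:7272514-7699585, GRCm38) held 7 of the genes measured, in the order Mmp13, Mmp12, Mmp1b, Mmp3, Mmp10, Mmp27 and Mmp7, and its members moved in opposite directions. Promoter windows from RefSeq (GRCm38.p6), 250 bases before to 50 after a start site, were found for 32 of the 44 genes. They were searched on both strands for TGANTCA, the letters bound by AP-1 (Fos and Jun proteins), which is known to act at proximal sites of several MMP promoters. The motif was present in 6 of the 7 cluster genes, all but Mmp27, and in none of the 25 other genes with a window. Mmp12 and Mmp7 each also had another window without it. Counted by window, 6 of the 35 windows of the family (17.1%) held it, against 7.79% of 32544 distinct windows of all genes. The windows of the 4 cluster genes that changed with TGFβ are printed 5′ to 3′ with the motif in capitals, to show that genes that rose and genes that fell both carry it close to the start. All are on the plus strand: Mmp13 at chr9:7272264-7272563, the later of the windows of Mmp12 at chr9:7347124-7347423, Mmp3 at chr9:7445572-7445871 and Mmp10 at chr9:7502092-7502391.
Mmp13: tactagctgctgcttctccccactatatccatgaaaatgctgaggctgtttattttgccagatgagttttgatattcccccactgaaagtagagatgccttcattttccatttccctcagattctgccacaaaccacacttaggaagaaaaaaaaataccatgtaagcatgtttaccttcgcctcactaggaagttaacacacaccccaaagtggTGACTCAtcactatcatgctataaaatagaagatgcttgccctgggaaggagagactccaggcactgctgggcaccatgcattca
Mmp12: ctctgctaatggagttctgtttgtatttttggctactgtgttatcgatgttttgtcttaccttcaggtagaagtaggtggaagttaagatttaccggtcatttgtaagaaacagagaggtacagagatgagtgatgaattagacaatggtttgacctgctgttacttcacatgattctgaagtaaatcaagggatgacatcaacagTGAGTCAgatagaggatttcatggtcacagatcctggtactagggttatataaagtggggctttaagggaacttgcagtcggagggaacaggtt
Mmp3: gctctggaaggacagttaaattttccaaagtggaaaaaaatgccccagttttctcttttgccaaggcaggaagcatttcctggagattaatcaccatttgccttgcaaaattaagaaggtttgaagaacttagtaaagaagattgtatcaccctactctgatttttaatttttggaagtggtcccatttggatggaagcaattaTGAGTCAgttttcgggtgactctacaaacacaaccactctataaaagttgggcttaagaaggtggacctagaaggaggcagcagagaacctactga
Mmp10: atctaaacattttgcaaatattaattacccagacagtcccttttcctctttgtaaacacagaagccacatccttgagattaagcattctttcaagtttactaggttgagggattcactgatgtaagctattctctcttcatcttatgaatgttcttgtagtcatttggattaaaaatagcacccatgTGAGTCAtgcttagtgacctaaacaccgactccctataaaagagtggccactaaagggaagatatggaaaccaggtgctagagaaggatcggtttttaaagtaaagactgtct
The first base of the motif lay 35, 44, 46 and 63 bases before the start site in Mmp13, Mmp12, Mmp3 and Mmp10, of which the first and the third fell and the second and the last rose. Its letters were TGACTCA in Mmp13 and TGAGTCA in the others, which is the same site read on opposite strands. The core bound by ETS factors, GGAA, was in 32 of the 35 windows of these genes and in 96.0% of all windows. A match of letters does not show that a factor binds there.

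Mmp13, a collagenase, was the most abundant gene of the cluster. In TRF1ΔN cells it had 16.6 CPM at 0 h and 4.06 at 24 h, and in Vp16-TRF1ΔN cells 22.6 and 12.1, so the 24 h libraries were lower in both lines and differed from each other. The fall had a log2 change of -1.43 ± 0.29 (adjusted p = 0.0176), a call that ended when the times were compared without a line term (adjusted p = 0.102) and there without the TRF1ΔN library at 0 h (0.145) or the Vp16-TRF1ΔN library at 0 h (0.271). Next to it, Mmp12, known as macrophage elastase, had 2 and 0 counts at 0 h and 76 and 93 counts at 24 h in the TRF1ΔN and Vp16-TRF1ΔN lines. That was 43.0-fold higher (11.5 to 362) in TRF1ΔN cells and, with 3 counts as the floor, at least 39.0-fold higher in Vp16-TRF1ΔN cells (lower 95% counting limit of the ratio itself 31.1), and the average rise passed the test (adjusted p = 0.00303). Of 9 leukocyte markers, Ptprc had 7 and 6 counts at 0 h and 1 in each 24 h library, and Lyz2 had 10 and 9 and then 0. Itgam had 9 and 8 counts and then 4 and 0, while the macrophage receptor gene Csf1r had 1 and 2 counts at 0 h and 101 and 21 at 24 h. Cd68 had the highest counts of these markers, 150 and 133 at 0 h and 123 and 110 at 24 h, and did not pass. The other 4 had no row here.

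Mmp3, a stromelysin, had 22 and 15 counts at 0 h and 2 in each 24 h library (9.72-fold lower, 2.39 to 85.3, and 5.96-fold lower, 1.39 to 53.7). Mmp10, a close relative of Mmp3 in sequence and position, had 7 and 13 counts at 0 h and 36 and 27 at 24 h, 5.82-fold higher (2.56 to 15.5) and 2.61-fold higher (1.30 to 5.51). Both passed the test (adjusted p = 0.0140 and 0.0229), but at these counts neither did in DESeq2's Wald test (0.147 and 0.144). Without the TRF1ΔN library at 0 h the adjusted p in the comparison of times was 0.0934 for Mmp3 and 0.152 for Mmp10, and without the Vp16-TRF1ΔN library at 0 h it was 0.0522 and 0.0532. Mmp1b, Mmp27 and Mmp7 had at most 3 counts, and Mmp23, which lies elsewhere, at most 8. Since these genes are close relatives, reads that fit more than 1 of them could have been left out of the counts.

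**Figure D3:**
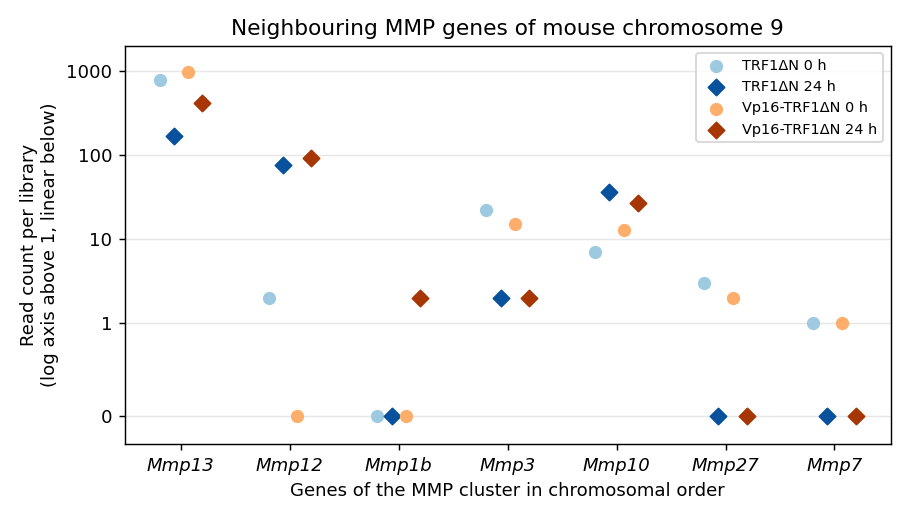
Read counts per library (log axis above 1) of the 7 MMP genes of the chromosome 9 cluster in chromosomal order, with circles for 0 h and diamonds for 24 h of TGFβ. Diamonds lie below circles for Mmp13 and Mmp3 and above them for Mmp12 and Mmp10, in both lines.

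Of the 17 ADAMTS genes, 6 rose, 2 fell, 3 (Adamts1, Adamts5 and Adamts10) did not pass and 6 were not tested. Of all genes tested 23.1% rose and 25.4% fell, and among the rises here Adamts2 and Adamts16 met the filter's level only at 24 h. Per kb of exon, Adamts7 and Adamts6 together held most of the ADAMTS level at 24 h, with 39.1% and 28.5% of the sum in the TRF1ΔN line and 31.6% and 20.0% in the Vp16-TRF1ΔN line. Adamts7, whose product cleaves the matrix protein COMP, had 8.25 CPM at 0 h and 70.2 at 24 h in TRF1ΔN cells, and 8.47 and 53.5 CPM in Vp16-TRF1ΔN cells. Its log2 change was 2.88 ± 0.13 (adjusted p = 0.000917). Adamts12, the closest relative of Adamts7 in domain structure, rose by 3.11 ± 0.19 (adjusted p = 0.00126), from 45 to 387 and from 46 to 280 counts. Both lines started at nearly the same level for this pair.

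Adamts6 and Adamts10 encode a pair of related proteases that act on fibrillin microfibrils, and they differed. Adamts6 went from 7.70 to 63.5 CPM and from 7.66 to 42.0 CPM (log2 change 2.755 ± 0.17, adjusted p = 0.00125). Adamts10 had 8.86 and 14.1 CPM in the TRF1ΔN line and 10.2 and 10.6 CPM in the Vp16-TRF1ΔN line, and did not pass (0.37 ± 0.18, adjusted p = 0.159), although it did in the comparison of times without the Vp16-TRF1ΔN library at 24 h (0.0189). Adamts16 had 0 and 1 counts at 0 h and 152 and 35 counts at 24 h. Against the floor of 3 counts that is at least 57.3-fold higher in the TRF1ΔN line (lower 95% counting limit of the ratio itself 46.1), and 44.0-fold higher in the Vp16-TRF1ΔN line (7.40 to 1788), and the average rise passed the test (adjusted p = 0.00288).

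Proteases that cleave proteoglycans such as versican and aggrecan were split. Adamts15 had 22.4 and 24.4 CPM at 0 h and 8.55 and 6.97 CPM at 24 h, a fall with a log2 change of -1.59 ± 0.14 (adjusted p = 0.00236). Adamts9 had 150 and 13 counts in the TRF1ΔN line and 27 and 6 in the Vp16-TRF1ΔN line, and fell by 2.88 ± 0.43 (adjusted p = 0.00800). That call was lost without the line term (adjusted p = 0.0564) and there without the TRF1ΔN library at 0 h (0.221, with a log2 change of -1.34), the TRF1ΔN library at 24 h (0.0669) or the Vp16-TRF1ΔN library at 24 h (0.0909). Adamts4, an aggrecanase, rose by 1.56 ± 0.36 (adjusted p = 0.0249), from 108 to 438 counts and from 110 to 159 counts, and did not pass in the comparison of times without the TRF1ΔN library at 0 h (0.122) or the Vp16-TRF1ΔN library at 0 h (0.0943).

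Adamts1 encodes a versican-cleaving protease and had the highest level per kb of the ADAMTS genes at 0 h. Its level was 27.7 CPM at 0 h and 15.85 at 24 h in TRF1ΔN cells, and 29.7 and 48.0 CPM in Vp16-TRF1ΔN cells. The lines were alike at 0 h, and the TRF1ΔN library was the lower and the Vp16-TRF1ΔN library the higher at 24 h, so the average was near 0 (-0.04 ± 0.37, adjusted p = 0.944). Its share of the summed ADAMTS CPM per kb was 45.0% and 45.7% at 0 h, and 10.5% and 33.6% at 24 h in the TRF1ΔN and Vp16-TRF1ΔN lines. Adamts5, the other main aggrecanase and the neighbour of Adamts1 on chromosome 16, had 1 and 5 counts at 0 h and 13 and 11 at 24 h and did not pass (adjusted p = 0.0549), but did without the low-count filter (0.0486) and without mitochondrial genes (0.0471). Adamts2, which removes the amino-terminal propeptide of fibrillar procollagens, had 10 and 5 counts at 0 h and 29 and 17 at 24 h. It passed the test (log2 change 1.84 ± 0.38, adjusted p = 0.0192) but not DESeq2's Wald test (0.229), nor the comparison of times without the TRF1ΔN library at 0 h (0.0926), the TRF1ΔN library at 24 h (0.0833) or the Vp16-TRF1ΔN library at 0 h (0.172). The other procollagen proteinase genes, Adamts3 and Adamts14, had at most 9 counts, and Adamts13, Adamts17, Adamts18 and Adamts20 at most 7.

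ADAMTS-like genes encode matrix proteins, several of which bind fibrillin or LTBPs. Adamtsl3 had 88 and 92 counts at 0 h and 433 and 315 at 24 h, a rise with a log2 change of 2.29 ± 0.17 (adjusted p = 0.00185). Adamtsl2 had 0 and 1 counts at 0 h and 15 and 10 at 24 h, at least 5.66-fold higher against that floor in the TRF1ΔN line (lower counting limit 4.06), and its call (adjusted p = 0.0160) was lost in DESeq2's Wald test (0.0722) and without the TRF1ΔN library at 0 h in the comparison of times (0.0769), while without the TRF1ΔN library at 24 h it was not tested. Adamtsl4, which is required for the zonular fibres of the eye, had 13.75 and 15.6 CPM in the TRF1ΔN line and 12.4 and 22.4 CPM in the Vp16-TRF1ΔN line and did not pass (adjusted p = 0.0797), but did without the low-count filter (0.0223) and in the comparison of times without the TRF1ΔN library at 24 h (0.00331, edgeR). Adamtsl5 had 12.0 and 7.13 CPM and then 12.85 and 10.9 CPM and did not pass either (adjusted p = 0.0667), but did without the filter (0.0234) and in the comparison of times without the Vp16-TRF1ΔN library at 24 h (0.00422). Adamtsl1 had at most 2 counts.

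**Figure D4:**
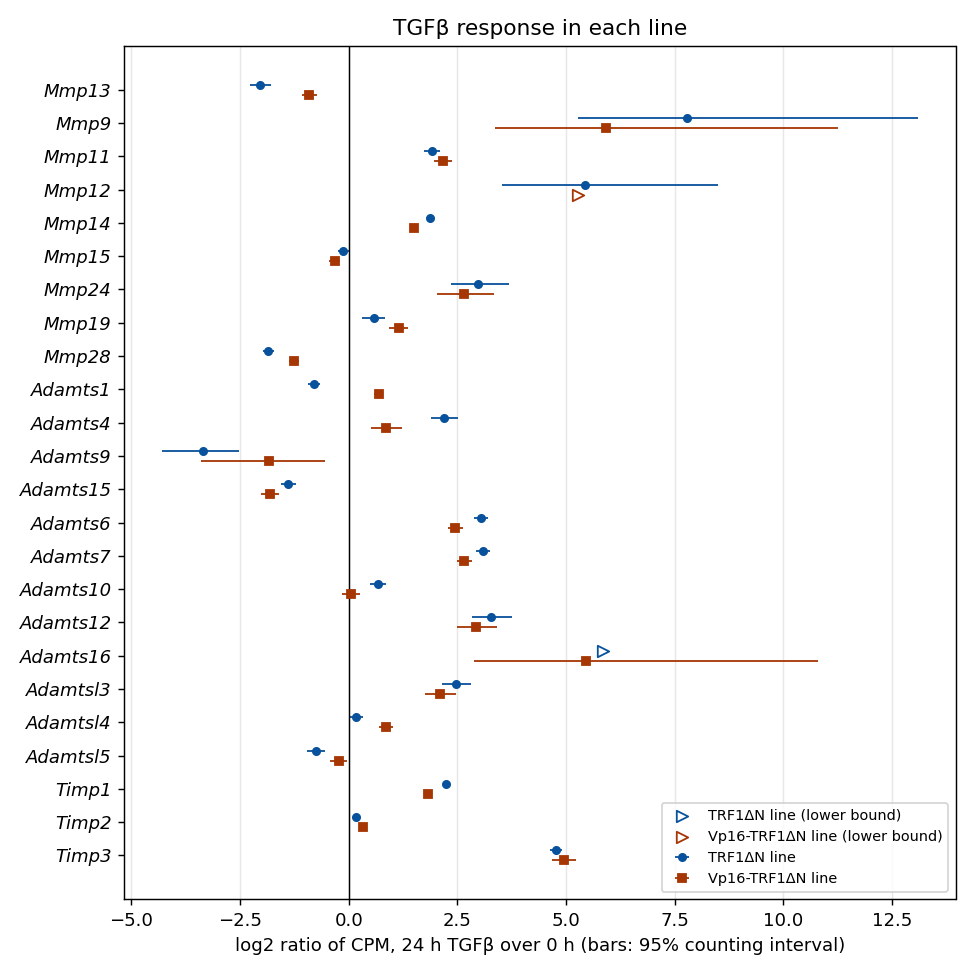
Log2 ratio of CPM at 24 h of TGFβ over 0 h in the TRF1ΔN line (blue circles) and the Vp16-TRF1ΔN line (brown squares) for the 24 genes averaging 1 CPM or more, with 95% counting intervals as bars and open triangles for lower bounds against the floor. Timp3 lies at 4.77 and 4.93, and Adamts1 lies at -0.80 in the TRF1ΔN line and 0.69 in the Vp16-TRF1ΔN line.

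Within each line the response has no test, since each group held 1 library. A gene was counted if it averaged 1 CPM or more, its ratio reached 2-fold and the counting interval of that ratio left out 1. After TGFβ, 13 of the 24 genes at that level were counted as higher in TRF1ΔN cells and 4 were lower, against 8.40% and 10.9% of all 11777 genes. In Vp16-TRF1ΔN cells the numbers were 13 higher and 3 lower, against 6.92% and 9.09%. Mmp9, Mmp12, Mmp24 and Adamts16 averaged 1 CPM only through the 24 h libraries, and Adamts9 only through that of TRF1ΔN at 0 h. The direction of these 5 was thus set by the rule and their counts support nothing. Counted in 1 line only were 3 of the 24 genes (12.5%), against 6.61% of all 11777 genes: Adamts4 (4.59-fold higher, 3.71 to 5.72) and Mmp13 (4.09-fold lower, 3.46 to 4.86) were counted in the TRF1ΔN line, and Mmp19 (2.22-fold higher, 1.91 to 2.59) in the Vp16-TRF1ΔN line. Their ratios in the other line were 1.82, 0.535 and 1.49. Of the 19 called genes at 1 CPM or more, 13 had a log2 ratio nearer 0 in the Vp16-TRF1ΔN line, which is close to the 65.8% of all called genes at that level.

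To ask how the fusion protein changes these genes, the lines were compared as the average over both times in the same additive fit. None of the 14305 genes passed at an adjusted p under 0.05 in edgeR's quasi-likelihood test (0.00% called), 12.4% had an unadjusted p under 0.05, and DESeq2's Wald test called 46, or 0.312%. Of the 30 genes tested here, 8 had an unadjusted p under 0.05, with Mmp13, Mmp15 and Mmp19 higher and Timp1, Timp3, Mmp9, Adamts9 and Adamts16 lower in the Vp16-TRF1ΔN line. Timp3 was lower by a log2 difference of -1.63 ± 0.08, with an adjusted p of 0.0837 in edgeR's quasi-likelihood test, 8.99e-22 in DESeq2's Wald test and 5.6e-05 in edgeR without the filter on low counts. Timp1 had a log2 difference of -0.65 ± 0.12 (adjusted p = 0.397, and 0.0172 and 0.026 under those same alternatives).

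Timp3 had the smallest p of these genes between the lines. It was 3.34-fold lower in the Vp16-TRF1ΔN line at 0 h (counting interval 2.72 to 4.13) and 2.95-fold lower at 24 h (2.83 to 3.08). The difference was of like size at both times, and its response to TGFβ differed by 0.16 on the log2 scale, with a counting interval of -0.14 to 0.46. Adamts9 was 5.03-fold lower at 0 h (3.32 to 7.88), and at 24 h, with 13 and 6 counts, its interval included equality (1.76-fold lower, 0.625 to 5.66). These were the 2 genes counted as lower at 0 h, and 0 were counted as higher, against 0.416% and 0.178% of all genes. Adamts9 averaged 1 CPM only through the TRF1ΔN library at 0 h, with 3.15 CPM against 0.626 in Vp16-TRF1ΔN at 0 h. Its direction here was bound to that rule, so its count supports nothing. Timp1 was 1.351-fold lower at 0 h (1.28 to 1.43) and 1.81-fold lower at 24 h (1.75 to 1.86).

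After TGFβ, 4 genes were counted as lower in the Vp16-TRF1ΔN line and 2 as higher, against 1.18% and 2.11% of all genes. Lower beside Timp3 were Mmp9 (3.29-fold, 2.39 to 4.61), Adamts16 (3.54-fold, 2.44 to 5.26) and Adamts4 (2.24-fold, 1.87 to 2.71). Mmp9 and Adamts16 averaged 1 CPM only with the TRF1ΔN library at 24 h (4.61 and 3.61 CPM, against 1.40 and 1.02 in Vp16-TRF1ΔN). Their direction here was bound to that rule, so their counts support nothing. Adamts1 was 3.03-fold higher (2.77 to 3.32) and Mmp13 2.97-fold higher (2.48 to 3.58). At 0 h the same ratios were 1.07 for Adamts1 (0.993 to 1.16) and 1.36 for Mmp13 (1.24 to 1.49). Mmp2, below the level for counting, had 33 counts in the TRF1ΔN library and 5 in the Vp16-TRF1ΔN library.

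The difference of the responses, which has no test either, was counted for 4 genes. It was higher in the Vp16-TRF1ΔN line for Adamts1 (log2 difference 1.495, counting interval 1.32 to 1.67), Adamts9 (1.57, 0.20 to 2.93) and Mmp13 (1.12, 0.83 to 1.41), against 1.82% of all genes, and lower for Adamts4 (-1.33, -1.79 to -0.86), against 0.909%. For Adamts9 and Mmp13 a positive value means a smaller fall. The count of Adamts9 was again bound to the rule, since only the TRF1ΔN library at 0 h lifted its average to 1 CPM. For Adamts1 the directions were opposite. Mmp9 had a difference of -1.73 whose counting interval, -4.08 to 0.62, included 0 because of its single counts at 0 h.

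**Figure D5:**
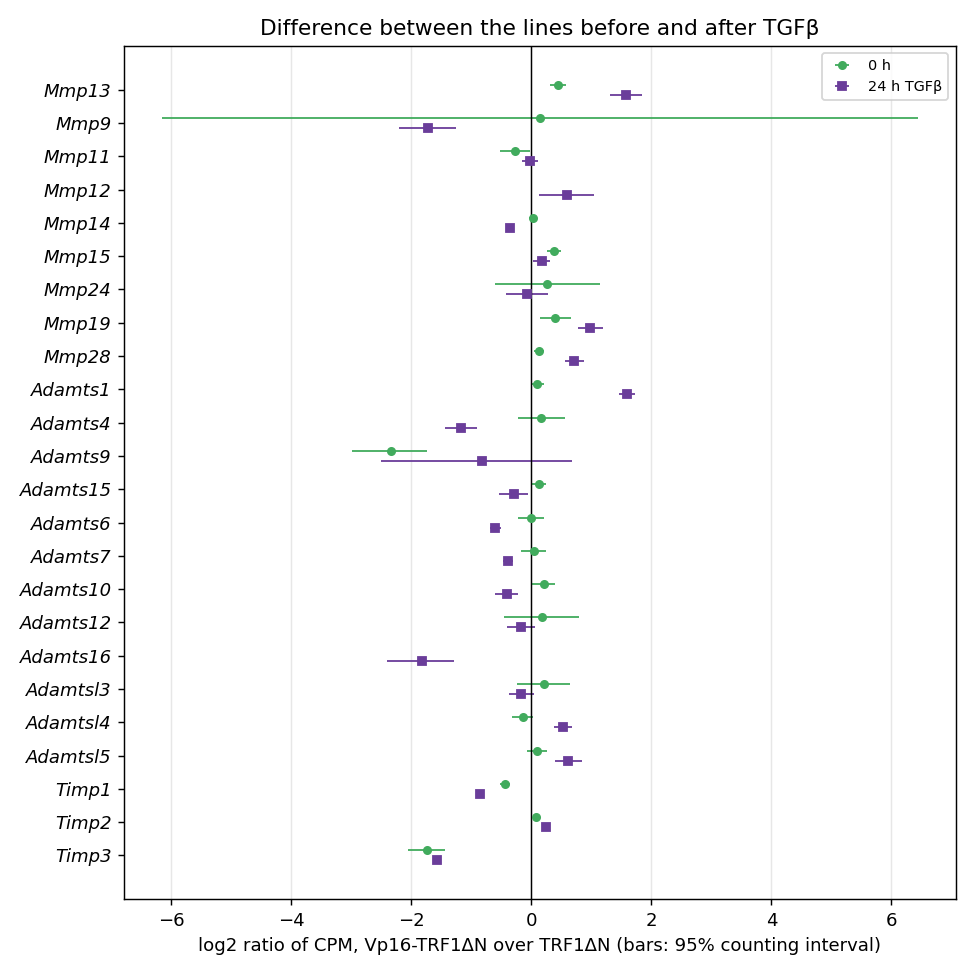
Log2 ratio of CPM, Vp16-TRF1ΔN over TRF1ΔN, at 0 h (green circles) and at 24 h of TGFβ (purple squares) for the 24 genes averaging 1 CPM or more, with 95% counting intervals as bars. Timp3, Timp1 and Adamts9 are among the genes left of 0 at both times, but the bar of Adamts9 crosses 0 at 24 h. Adamts1 and Mmp13 lie furthest right at 24 h. Mmp12 and Adamts16 have no point at 0 h because a library had 0 counts.

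Regulators and relatives of these enzymes were read from lists written from general knowledge. Of 21 genes that activate, bind or clear them, 8 rose, 4 fell, 4 did not pass, 2 were not tested and 3 had no row here. Of all genes tested 23.1% rose and 25.4% fell, so the 4 falls among the 16 tested here were near that share. Among those that rose were the cathepsin gene Ctsl (1.49 on the log2 scale), Pofut2, which adds fucose to thrombospondin repeats (1.11), and Sparc (0.92). Furin, the convertase that activates Mmp14 and Mmp11 proenzymes, rose by 0.84 ± 0.15 (adjusted p = 0.0138). Thsd4, an ADAMTS-like gene by another name (-3.07), the convertase gene Pcsk6 (-2.765), Lcn2, whose product binds MMP9 (-2.67), and the urokinase receptor gene Plaur (-0.62) fell most. Bsg, an inducer of MMPs (-0.14, adjusted p = 0.135), and Lrp1, a receptor that clears them (-0.01, adjusted p = 0.906), did not pass, and Reck, which encodes a membrane inhibitor of MMPs, had at most 4 counts.

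Of 19 ADAM and astacin relatives, 7 rose, 6 fell, 2 were not tested and 4 had no row here. Adam12 (4.65), Pcolce2 (2.39), the procollagen C-proteinase gene Bmp1 (2.27) and Adam8 (1.75) rose most, and the meprin gene Mep1a (-5.06), Adam23 (-3.21), Pcolce (-2.375) and the neprilysin gene Mme (-2.16) fell most. Among 18 substrates and fibrillin partners, 9 rose, 1 fell, 6 were not tested and 2 had no row here. Thbs1 (5.41), Col5a1 (4.11), Col1a1 (3.91) and the fibrillin gene Fbn1 (3.90) rose most, Vcan, the versican gene, rose by 1.81 ± 0.10 (adjusted p = 0.00110), and Acan, the aggrecan gene, fell from 119 to 20 counts and from 44 to 3 counts. Of 16 transcription factor genes with sites in MMP promoters, 10 rose, 4 fell and 2 did not pass. Jun (2.59), Fosb (2.55), Fosl2 (2.31) and Runx1 (1.93) rose most, and Fos (-1.58), Fosl1 (-1.08), Etv4 (-1.04, adjusted p = 0.0830 under DESeq2) and Ets2 (-0.70) fell, so AP-1 subunit genes went both ways. The median log2 changes over the tested members of these 4 lists were 0.23, 0.29, 2.69 and 0.43 in the order given, against -0.01 over all genes tested. In that order 16, 13, 10 and 16 genes were tested. Of all genes tested 23.1% rose and 25.4% fell, so the 4 falls among the transcription factor genes were near that share.

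Some markers of other cell types moved with TGFβ. In bulk RNA, fewer cells of a type and less RNA per cell cannot be told apart. Of 9 immune markers 1 rose (Csf1r), 1 did not pass (Cd68), 3 were not tested and 4 had no row here, and their summed level was 3.72 and 3.67 CPM at 0 h and 5.44 and 3.85 CPM at 24 h in the TRF1ΔN and Vp16-TRF1ΔN lines. Of 6 fibroblast markers 3 rose (Pdgfra, Col1a1 and Pdgfrb), 1 was not tested and 2 had no row here. Their sum went from 1.32 to 26.3 CPM and from 1.90 to 12.8 CPM, with Dcn at 2 counts in each 0 h library and 0 at 24 h. Of 6 endothelial markers 1 rose (Cdh5) and 2 fell (Flt1 and Egfl7), and 2 were not tested and 1 had no row here. Flt1 made up most of their level, which was 113 and 121 CPM at 0 h and 38.8 and 48.1 CPM at 24 h, with Pecam1 at 1 to 3 counts. Of 7 epithelial markers 2 rose (Krt8 by 0.30 and Krt18 by 0.56 on the log2 scale), 1 did not pass (Epcam) and 1 had no row here. The 3 that fell were Krt19 (-3.42), Cdh1 (-1.46) and Ocln (-0.93). The part of these shifts in the results above was not tested.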

How the data were processed

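Counts of reads per gene, as deposited by the authors, were used. Per the submitters' processing notes, FastQC, STAR, HTSeq, DESeq2 and the mm10 build were used. Versions, annotation release and whether counting was stranded: not given in the sources used here. Log2 values deposited by the authors equal log2 of the count over a size factor, plus 1, and were used only for that check. The 4 rows of construct sequence were left out. The fit ran in R 4.3.3 with edgeR 4.0.16: TMM scaling over all genes, filterByExpr, an additive quasi-likelihood model of line and time, and Benjamini-Hochberg adjustment over 14305 genes. SE is the absolute log2 change over the square root of F. Ratios between single libraries have exact conditional 95% intervals (Clopper-Pearson), and differences of log2 ratios (prior count 2) have Poisson intervals. All cover counting error only. Separate cultures are not named in the labels. With 1 library per group, the p-values rest on the departure from additivity and measure no spread between cultures. DESeq2 1.42.0, other scaling, filters, folds and left-out libraries were the alternatives. Scripts were tested on simulated data. Every gene of the family is named. Of the related lists, up to 4 genes with the largest called changes in each direction are named, with Reck, Bsg, Furin, Lrp1, Lcn2, Pofut2 and Vcan whatever their values. The genes and lists were chosen with earlier results of these data known. Protein sequences were not used here. Some results are not reported here.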

Additional observations from a re-analysis of the deposited data

Results flagged for a closer look

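Adamts1 is listed because its level moved in opposite directions in the lines: 1.75-fold lower after TGFβ in the TRF1ΔN line (95% counting interval 1.59 to 1.92) and 1.62-fold higher in the Vp16-TRF1ΔN line (1.503 to 1.74). The difference of the log2 responses was 1.495. With 1 library in each group this difference was not tested.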

How the results depend on the processing

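Of the 23 calls, 14 (12 higher, 2 lower) held under all 9 other settings, and 9 were lost under at least 1. The family counts were 18 higher and 5 lower. Lower calls numbered 3 in a fit of time without a line term. Leaving out each library in turn in that fit gave 12 to 18 higher and 2 to 6 lower, and called 2241 genes in all without the TRF1ΔN library at 0 h and 2525 without the Vp16-TRF1ΔN library at 0 h, against 6936. Between lines, 0 genes of the family were lower, against 2 without the low-count filter and 2 in DESeq2's Wald test, which called 0.231% of all genes lower. At 1.5-fold, 5 were counted as higher at 24 h (2 at 2-fold), and the difference of responses was higher for 5 (3) and lower for 3 (1). Shares of all genes at 1.5-fold, and between lines without the filter, are not given here. These larger counts therefore show nothing particular to the family. The log2 change of Adamts1, -0.04, became 0.151 without the line term, and there 0.102 without TRF1ΔN at 0 h, 0.730 without TRF1ΔN at 24 h (adjusted p = 0.00179, edgeR) and 0.204 without Vp16-TRF1ΔN at 0 h, against -0.86 without Vp16-TRF1ΔN at 24 h (adjusted p = 0.00122). Mmp17, 0.22, became -0.01 without TRF1ΔN at 0 h and -0.255 without TRF1ΔN at 24 h. The cause was not tested. The additive fit compares the times within each line, so the line is its block. Pairing by replicate number could not be tried because the labels number no replicates. Counts of 3 or fewer limit the ratios of Mmp3, Mmp9, Mmp12, Adamts5, Adamts16 and Adamtsl2.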
